A study of Mus musculus with 60 samples.

Results

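The genes described here carry the names of the translation initiation factors, the proteins that load an mRNA and the initiator tRNA onto the ribosome. They were the protein-coding genes of the deposited expression table, autosomal or Eif1ax, whose symbol starts with Eif1 to Eif6, with Eif2s3x and Eif2s3y left out. The rule uses names only, and it found 52 of the 27238 genes of the table. The set therefore also holds genes with other roles, all counted as factors here. Among them are kinases that phosphorylate eIF2, repressors of the cap-binding protein eIF4E and the exon junction helicase gene Eif4a3. RNA of single embryos or of donor cells was sequenced in 60 libraries, 3 for each of 20 groups. The embryos came from 3 sources and were taken at 6 stages, from the 1-cell embryo through the 2-cell, 4-cell and 8-cell embryo to the morula and the blastula. In vivo embryos were recovered from C57BL/6 females mated with DBA2 males. NTC embryos were made by nuclear transfer of a cumulus cell, and NTM embryos by nuclear transfer of a mouse embryonic fibroblast, into enucleated oocytes of superovulated BDF1 (C57BL/6 by DBA2) females. Both kinds of nuclear transfer (NT) embryo were activated with strontium chloride with cytochalasin B, exposed to the histone deacetylase inhibitor Scriptaid and cultured. These steps and the source of the egg set them apart from in vivo embryos. Donor nucleus, strain of the egg donor, enucleation and injection, activation, drug and culture cannot be told apart. The paper does not say whether the in vivo females were superovulated. The other groups were the donor cells, cumulus cells (CC) and mouse embryonic fibroblasts (MEF) from mid-gestation BDF1 fetuses, which were starved of serum before transfer.

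Initiation in the cytoplasm follows a known order. The eIF2 complex, with GTP, carries the initiator tRNA to the small ribosomal subunit, which also binds eIF1, eIF1A, eIF3 and eIF5. The cap-binding complex eIF4F (the cap-binding eIF4E, the scaffold eIF4G and the helicase eIF4A) brings in the mRNA, and eIF5B joins the large subunit. eIF2B recharges eIF2 with GTP, and kinases that phosphorylate eIF2 block this step. Oocytes store many mRNAs in a repressed state, and the mouse embryo replaces them with its own transcripts during zygotic genome activation (ZGA), whose major wave falls late in the 2-cell stage.

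Values are RPKM (reads scaled to gene length in kilobases and to library size), so levels of different genes can be compared per length. Fold changes are differences of the mean log2(RPKM + 1) and understate the change of low genes. A gene was called when the limma adjusted p, over all genes tested, was under 0.05 and the difference was at least 1 on that scale. Library depth, worked out from the steps between RPKM values, ran from 5294167 to 47830132 reads on genes with a median of 15451428, and 3 reads on a gene of 2000 bases were worth 0.0314 to 0.283 RPKM. The share of reads on mitochondrial genes was 2.92% to 22.9% at the 1-cell and 2-cell stages and 20.4% to 64.2% later, except for the in vivo 4-cell libraries at 5.68% to 8.87%. In vivo morula replicate 1 stood apart at 64.2%. The summed RPKM of 8 fibroblast markers was 5408 to 8097 in MEF and 3.02 to 3.83 in CC. The summed RPKM of 8 cumulus markers did not separate the donor cells, at 461 to 1089 in CC and 498 to 1216 in MEF, and the cumulus marker Has2 was at 0 in every CC library, while Foxl2 was at 0 in every MEF library. The summed RPKM of 5 markers of the 2-cell stage was 2.38 to 15.8 in the 1-cell libraries. At the 2-cell stage it was 39.0 to 1096 in in vivo, 119 to 236 in NTC and 5.62 to 83.5 in NTM embryos. Whether the 2-cell libraries differ in their progress through ZGA was not tested. Bulk RNA of a whole embryo cannot tell fewer cells of a type from less RNA per cell.

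Summed as a group, the factor genes were lower at the 1-cell and 2-cell stages than from the 4-cell stage on. Their summed level lay between 1276 and 2430 RPKM in the 18 libraries of the 1-cell and 2-cell stages. It lay between 2866 and 7320 RPKM in the 36 libraries from the 4-cell stage to the blastula, and the lowest of these was in vivo morula replicate 1, without which the range began at 3415 RPKM. These ranges of summed RPKM therefore did not overlap in any embryo type. As a share of the summed RPKM of all genes, the stages did overlap in in vivo and NTM embryos. In vivo morula replicate 1 was at 0.475%, below in vivo 1-cell replicate 2 at 0.748%. NTM blastula replicate 3 was at 0.618%, below NTM 1-cell replicate 2 at 0.640%. The summed level was highest in in vivo 4-cell embryos, at 6969 ± 321 RPKM (SD, n = 3), against 4351 ± 563 RPKM in NTC and 4524 ± 597 RPKM in NTM 4-cell embryos. The donor cells were in between, at 3231 ± 186 RPKM in CC and 3368 ± 378 RPKM in MEF. Of the 52 genes, 24 had their highest embryonic mean at the 4-cell stage, 19 of them in in vivo 4-cell embryos. The share of all genes with their highest mean there was not worked out, so this count may not be particular to the factors.

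**Figure D1:**
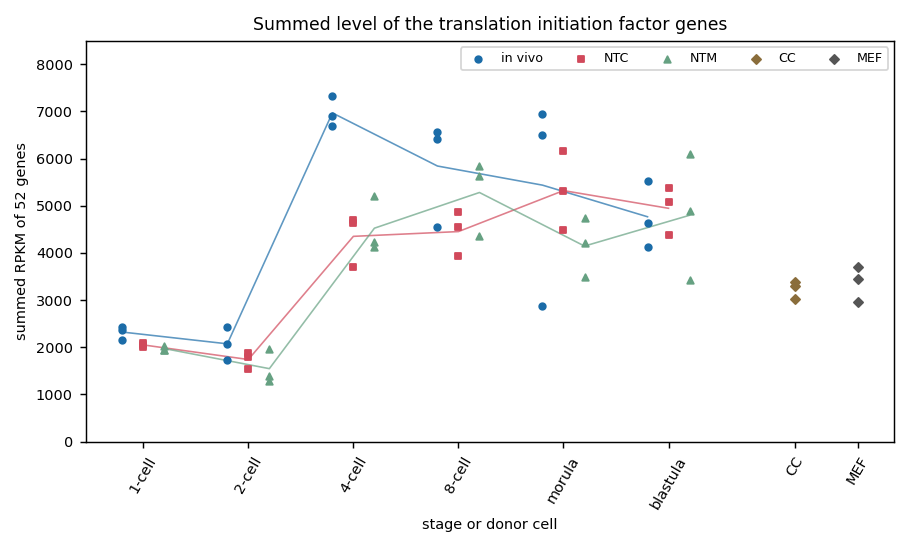
Summed RPKM of the 52 translation initiation factor genes (vertical axis) in each library by stage and donor cell (horizontal axis), with points for libraries and lines through the mean of 3 libraries. The 18 libraries of the 1-cell and 2-cell stages sit between 1276 and 2430, below all 36 later embryo libraries.

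The factors of one complex were far from equal in mRNA level. Among the 14 eIF3 genes, which encode the scaffold of the small subunit complex, Eif3e had the highest mean log2(RPKM + 1) over all 60 libraries (7.84) and Eif3d the lowest (0.99). Within single groups the eIF3 means ran from 0.176 RPKM for Eif3k to 655 RPKM for Eif3e in in vivo 8-cell embryos. In vivo 4-cell embryos had none of the 14 eIF3 genes under a mean of 5 RPKM, whereas the other 19 groups had 2 to 10 of them under it. In the other roles, the genes with the highest mean log2(RPKM + 1) were Eif1 (6.97), Eif2s2 (7.45, the beta subunit of eIF2), Eif2b1 (5.11), Eif2ak1 (1.73, the heme-regulated eIF2 kinase), Eif4g2 (8.24, an eIF4G-like protein without the eIF4E binding site), Eif4ebp1 (6.24, a repressor of eIF4E) and Eif5 (7.69). The lowest were Eif1ad (4.83), Eif2d (3.85), Eif2b4 (1.78), Eif2ak2 (0.13, the kinase PKR that responds to double-stranded RNA), Eif4g3 (1.63), Eif4e1b (1.48) and Eif5a2 (0.83).

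**Figure D2:**
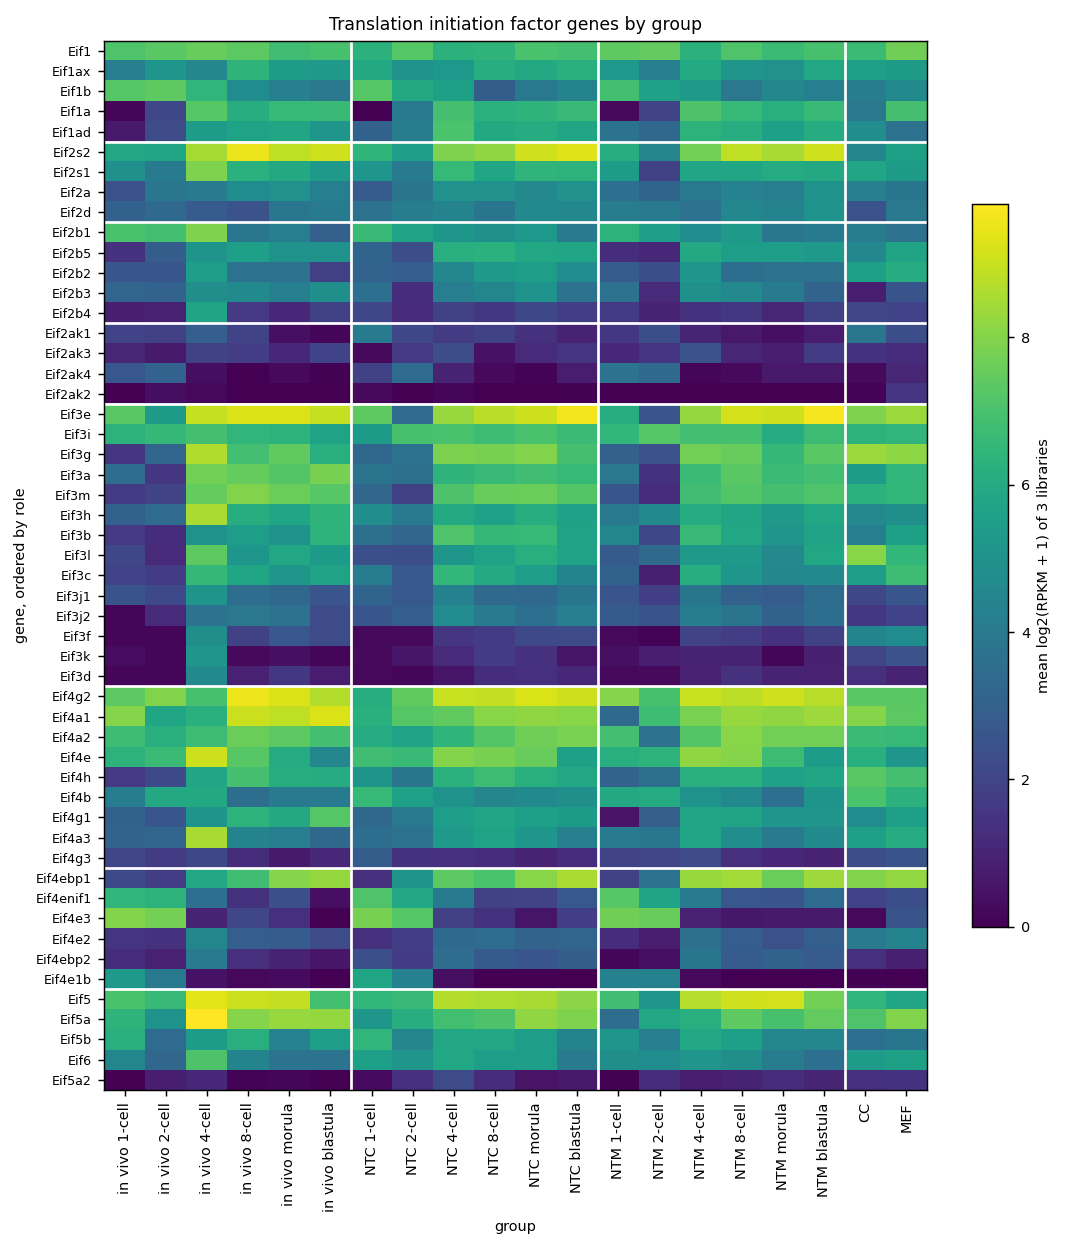
Mean log2(RPKM + 1) of 3 libraries (colour) for each of the 52 genes (rows, ordered by role and separated by white lines) in the 20 groups (columns). Many eIF3 rows (Eif3a, Eif3g, Eif3m) are dark at the 1-cell and 2-cell stages and brighter from the 4-cell stage on, Eif4e3, Eif4e1b and Eif4enif1 show the opposite order, and Eif3k, Eif3d and Eif2b4 are brightest in in vivo 4-cell embryos.

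The minor wave of ZGA begins between the 1-cell and 2-cell stages. In in vivo embryos no factor was called among 47 tested, and none was called among all 10854 genes (0%). At an unadjusted p under 0.05, limma gave 3 factors (Eif1a, Eif4b and Eif5b) and 615 of all genes (6.38% of factors and 5.67% of all genes). In NTC embryos 6 factors rose and 7 fell among 48 tested, where 13.5% of all genes were called, 4.53% higher and 8.95% lower. In NTM embryos 3 rose and 4 fell among 48 tested, where 9.40% of all genes were called, 2.72% higher and 6.68% lower. The median factor log2 change was -0.12 for in vivo, -0.39 for NTC and -0.32 for NTM embryos, beside medians of 0.02, -0.17 and -0.22 over all genes.

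In NTC embryos the largest rises were those of Eif1a and Eif4ebp1. Eif1a, the autosomal gene for eIF1A, was at 0 RPKM in all 3 NTC 1-cell libraries and at 25.7, 9.53 and 12.3 RPKM in the 2-cell libraries, which is at least 154-fold higher against a floor of 3 reads in a library (limma adjusted p = 0.00141). Eif4ebp1, which binds eIF4E and keeps it from eIF4G, went from 0.907, 0.704 and 4.30 RPKM to 28.9, 34.4 and 36.0 RPKM, a log2 change of 3.72 ± 0.47 (SE, limma adjusted p = 0.00205). Neither pair of groups overlapped. The largest falls were those of Eif3e and Eif2b3. Eif3e, a regulatory subunit of eIF3, went from 162, 152 and 181 RPKM to 3.02, 17.4 and 15.7 RPKM, a log2 change of -3.95 ± 0.53 (limma adjusted p = 0.00259). Eif2b3, a catalytic subunit of eIF2B, fell from 15.0, 9.58 and 9.58 RPKM to 4.66, 0.385 and 0.869 RPKM, a log2 change of -2.31 ± 0.56 (limma adjusted p = 0.0283). Without NTC 2-cell replicate 1 the count of called factors was 20 instead of 13, and it was 6, 5 and 5 without NTC 1-cell replicate 1, 2 or 3.

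In NTM embryos the largest falls were again in Eif3e, from 78.6, 96.0 and 41.5 RPKM to 16.9, 5.94 and 0.786 RPKM (log2 change -3.51 ± 0.78, limma adjusted p = 0.0279), and in Eif2s1, the alpha subunit of eIF2 that the kinases phosphorylate, from 40.7, 49.1 and 35.1 RPKM to 4.83, 6.85 and 0.190 RPKM (log2 change -3.48 ± 0.70, limma adjusted p = 0.0191). The largest rises were in the helicase gene Eif4a1, from 11.4, 8.24 and 8.44 RPKM to 247, 88.9 and 55.1 RPKM (log2 change 3.39 ± 0.55, limma adjusted p = 0.00807), and in the scaffold gene Eif4g1, from 0.235, 0.983 and 0.243 RPKM to 10.5, 7.02 and 4.30 RPKM (log2 change 2.44 ± 0.59, limma adjusted p = 0.0367). In none of these genes did the 1-cell and 2-cell libraries overlap. Without NTM 2-cell replicate 1 the count rose from 7 to 13, and without NTM 1-cell replicate 1, 2 or 3 it was 1, 1 and 0. With no filter on low values it was 3.

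The study singled out Eif1ad, Eif3j2 and Eif1ax for this interval, a choice made on these libraries. It lists them among genes reported as up in in vivo embryos and down in both NT groups. Its calls came from a count model, unlike the test used here. Eif1ax, the X-linked gene for eIF1A, was at 15.1, 17.7 and 19.7 RPKM in in vivo 1-cell embryos and at 39.2, 114 and 8.84 RPKM in 2-cell embryos, so the 2-cell libraries lay on both sides of the 1-cell ones. In NTC embryos it went from 57.9, 69.6 and 55.2 RPKM to 36.5, 28.7 and 29.7 RPKM, without overlap, a log2 change of -0.93 ± 0.24 that passed the adjusted p (limma, 0.034) but not the size limit. In NTM embryos it went from 31.1, 59.5 and 27.0 RPKM to 22.3, 21.1 and 12.1 RPKM, also without overlap, with a log2 change of -1.01 ± 0.45 (limma adjusted p = 0.204).

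Eif1ad, an eIF1A-domain protein, was at 0.0388, 1.01 and 0.870 RPKM in in vivo 1-cell embryos and at 11.2, 4.55 and 0.588 RPKM in 2-cell embryos. It went from 9.93, 9.76 and 3.95 RPKM to 7.75, 21.5 and 28.2 RPKM in NTC embryos, and from 11, 14 and 12 RPKM to 41.8, 8.39 and 1.47 RPKM in NTM embryos. The stages overlapped in all 3 embryo types. Eif3j2, for the loosely bound eIF3 subunit j, was at 0.0805, 0.138 and 0.0695 RPKM in in vivo 1-cell embryos and at 0.971, 0.303 and 3.87 RPKM in 2-cell embryos. In NTC embryos it was at 6.98, 4.09 and 4.68 RPKM and then at 7.19, 6.05 and 6.67 RPKM, and in NTM embryos at 6.47, 3.98 and 7.51 RPKM and then at 3.22, 3.57 and 9.23 RPKM. Of the 50-base windows of annotated Eif3j2 transcripts, 90.8% also occur in Eif3j1 transcripts, so reads of these genes may have been split or lost in counting. No other pair of the 52 genes shares such a window, Eif1a and Eif1ax included. Genes and pseudogenes outside the 52 were not searched.

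The change from 1-cell to 2-cell was also compared between NT and in vivo embryos in one fit. No factor was called in either test of this difference, where 0.0256% of all genes (NTC) and 0.204% (NTM) were called, and at an unadjusted p under 0.05 limma gave 7 and 8 factors of 48 tested (14.6% and 16.7%, beside 11.4% and 12.8% of all genes). For Eif1ax the difference in log2 change was -1.88 ± 0.92 in NTC (limma adjusted p = 0.461) and -1.96 ± 1.00 in NTM (limma adjusted p = 0.435). For Eif1ad it was -0.49 ± 1.04 and -2.0 ± 1.32, and for Eif3j2 it was -0.77 ± 0.77 and -1.31 ± 0.91 (limma adjusted p = 0.548 or more for these 4 values). Without in vivo 2-cell replicate 3, 2 factors were called in NTC and 1 in NTM.

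**Figure D3:**
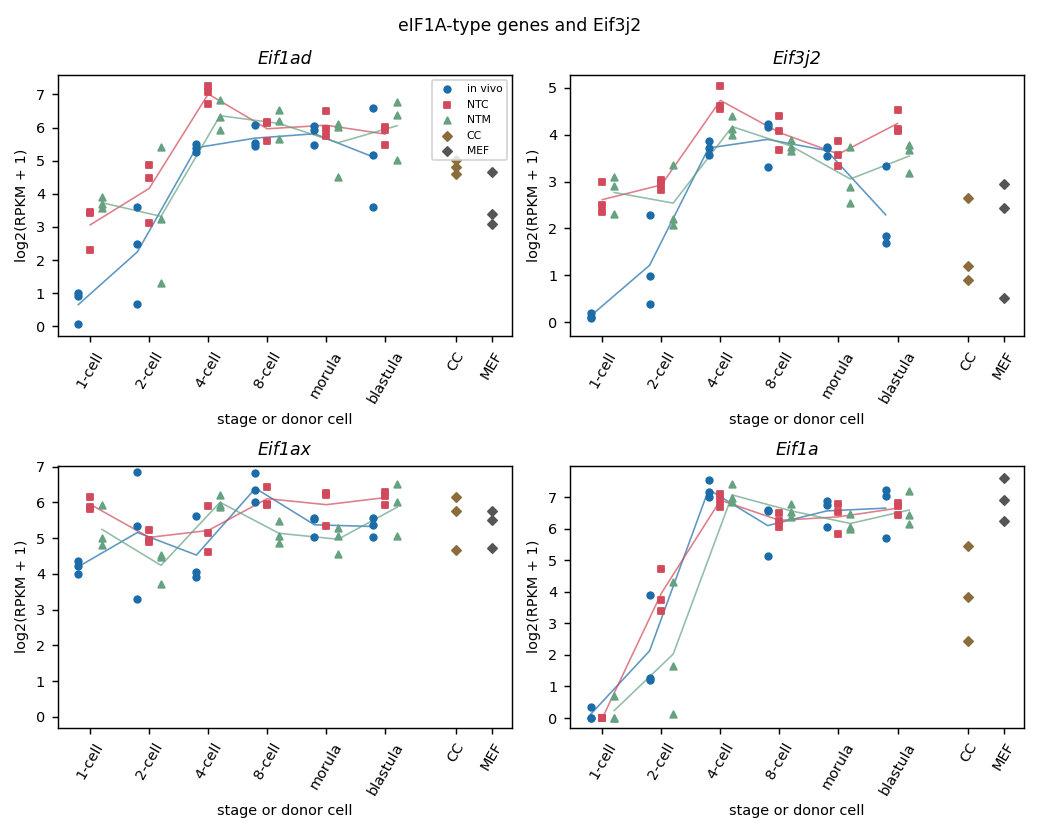
log2(RPKM + 1) of Eif1ad, Eif3j2, Eif1ax and Eif1a (vertical axes) in each library by stage and donor cell (horizontal axes), with points for libraries and lines through the mean of 3. Eif1ad and Eif3j2 are near 0 in the in vivo 1-cell libraries and higher in all NTC and NTM 1-cell libraries, and Eif1a is at or near 0 in all 1-cell libraries.

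At the 1-cell stage itself, NT embryos were compared with in vivo embryos. The paper calls this the pronuclear stage and gives no times of collection, so a difference in timing cannot be told apart. NTC exceeded in vivo embryos in 3 factors of 46 tested and was lower in none, where 1.16% of all genes were called, 0.988% higher and 0.175% lower. These were Eif4h, a cofactor of the helicase eIF4A, at 29.4, 35.4 and 35.1 RPKM against 0.862, 3 and 2.88 RPKM (log2 difference 3.48 ± 0.44, limma adjusted p = 0.0163), Eif3j2 (2.48 ± 0.40, limma adjusted p = 0.0405) and Eif1ax (1.74 ± 0.30, limma adjusted p = 0.0452). None of the 3 overlapped between the groups. Over 12 alternatives the call was kept in 6 for Eif4h, 4 for Eif3j2 and 3 for Eif1ax. The in vivo libraries held 2, 5 and 3 reads of Eif3j2, so its fitted size depends on the added 1. Without in vivo 1-cell replicate 1, which had the fewest genes detected among the 1-cell libraries (9491), 15 factors were called. Without in vivo 1-cell replicate 2 or 3 the count was 0 and 1, and it was 0 without any of the NTC libraries.

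NTM exceeded in vivo embryos in 2 factors and was lower in 2 of 46 tested, where 1.28% of all genes were called, 0.369% higher and 0.912% lower. Eif4a1 was lower, at 11.4, 8.24 and 8.44 RPKM against 410, 239 and 183 RPKM (log2 difference -4.68 ± 0.39, limma adjusted p = 0.00184), and so was Eif5a, for the hypusine-bearing factor eIF5A, at 12.5, 7.71 and 11.1 RPKM against 101, 66.4 and 85.7 RPKM (-2.91 ± 0.38, limma adjusted p = 0.0103). Eif1ad (3.08 ± 0.53, limma adjusted p = 0.0314) and Eif3j2 (2.64 ± 0.51, limma adjusted p = 0.0491) were higher. The groups did not overlap in any of the 4. The in vivo libraries held 2, 5 and 3 reads of Eif3j2 and 1, 38 and 39 of Eif1ad, so these fitted sizes depend on the added 1. Over 12 alternatives the call was kept in 12 for Eif4a1, 8 for Eif5a, 4 for Eif1ad and 3 for Eif3j2. The count was 8 without in vivo 1-cell replicate 1, 2 and 1 without in vivo replicates 2 and 3, and 1 without any of the NTM libraries. NTC and NTM were compared with the same in vivo libraries, so these results are not independent.

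The NT embryos were also compared with each other. The donor cells differed in type and in preparation, since MEF were cultured and starved of serum and CC were freshly collected, so these cannot be told apart. At the 1-cell stage 4 factors were higher and 10 lower in NTM than in NTC among 46 tested, where 19.8% of all genes were called, 5.64% higher and 14.2% lower. The lower ones were led by Eif4a1, at 8.24 to 11.4 RPKM against 60.8, 76.4 and 84.9 RPKM (log2 difference -2.85 ± 0.23, limma adjusted p = 0.000187), and by Eif4g1, at 0.235 to 0.983 RPKM against 7.95, 8.26 and 10.3 RPKM (-2.76 ± 0.35, limma adjusted p = 0.00134). The higher ones were led by Eif4g2, at 294, 217 and 282 RPKM against 93.7, 58.6 and 56.1 RPKM (1.94 ± 0.23, limma adjusted p = 0.00108), and by Eif2ak4, the kinase GCN2 that senses uncharged tRNA, at 11.4, 9.73 and 17.1 RPKM against 2.12, 3.16 and 2.98 RPKM (1.85 ± 0.32, limma adjusted p = 0.00461). In each of the 4 genes the groups did not overlap. The share of Eif4a1 in the sum of both eIF4A helicase genes, Eif4a1 and Eif4a2, was 5.97% to 8.18% in NTM 1-cell embryos, 49.5% to 54.9% in NTC and 65.1% to 79.4% in in vivo 1-cell embryos.

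The 1-cell embryos were also set against the cells that gave their nuclei. Against CC, NTC 1-cell embryos were higher in 10 factors and lower in 17 of 51 tested, where 50% of all genes were called, 29.3% higher and 20.8% lower. Against MEF, NTM 1-cell embryos were higher in 9 and lower in 18 of 52 tested, where 55.2% of all genes were called, 25.2% higher and 29.9% lower. The shares of factors called were close to those of all genes in both comparisons. The largest excess in NTC was that of Eif4e3 and Eif4e1b, both forms of the cap-binding protein, by 7.57 ± 0.24 and 5.73 ± 0.23 on the log2 scale (limma adjusted p = 1.38e-05 and 2.42e-05). In NTM it was that of Eif4e3 and Eif4enif1 by 5.12 ± 0.69 and 4.92 ± 0.54 (limma adjusted p = 0.000782 and 0.000308). The largest deficit in NTC was that of Eif4ebp1, by -6.58 ± 0.51 (limma adjusted p = 0.000175), followed by Eif3l at -5.67 ± 0.37 (limma adjusted p = 9.41e-05). In NTM the largest deficits were those of Eif1a at -6.69 ± 0.43 (limma adjusted p = 3.07e-05) and Eif4ebp1 at -6.28 ± 0.67 (limma adjusted p = 0.000264). Eif1ad was lower in NTC 1-cell embryos than in CC (27.3 RPKM on average in CC) by a log2 difference of -1.75 ± 0.39 (limma adjusted p = 0.0123). Between the donor cells, MEF and CC, Eif3l was the only factor called of 51 factors tested, where 6.29% of all genes were called, at 98.2, 63.4 and 110 RPKM in MEF against 250, 274 and 270 RPKM in CC (-1.57 ± 0.31, limma adjusted p = 0.0192), and this call was lost without CC replicate 3 or MEF replicate 1 or 2.

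At the 2-cell stage no factor was called between embryo types. Among 48 factors (NTC) and 49 factors (NTM) tested against in vivo embryos limma called none, where 0.152% and 0.141% of all genes were called, and an unadjusted p under 0.05 gave 9 and 7 (18.8% and 14.3%, beside 9.28% and 9.41% of all genes). Without in vivo 2-cell replicate 3, 2 factors were called in NTC.

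From 2-cell to 4-cell many factor genes rose in every embryo type. In in vivo embryos 31 rose and 4 fell of 51 tested, where 52.2% of all genes were called, 31.4% higher and 20.8% lower. In NTC embryos 25 rose and 4 fell of 50 tested, where 36.6% were called, 16.4% higher and 20.1% lower. In NTM embryos 21 rose and 3 fell of 51 tested, where 26.4% were called, 12.1% higher and 14.3% lower. The median factor log2 change was 2.66, 1.46 and 1.82 in this order, beside 0.36, -0.20 and -0.20 over all genes. Scaling libraries by the median ratio moved the median of all genes to 0.26, -0.30 and -0.27 and left 30, 22 and 21 factors higher and 4, 4 and 3 lower.

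The rise was uneven across roles. Among 9 genes for eIF4F and its helpers 3, 5 and 4 rose in in vivo, NTC and NTM embryos. Over all genes 31.4%, 16.4% and 12.1% rose. Among the 5 genes from Eif5 to Eif6, 4 rose in in vivo embryos and 1 in each kind of NT embryo. Of the 14 eIF3 genes, 13 rose in in vivo embryos (median log2 change 4.74), 10 of 13 tested in NTC (2.76) and 6 of 14 in NTM (1.95), and none fell. In in vivo embryos the largest rises were those of Eif3l and Eif3a. Eif3l, a peripheral eIF3 subunit, went from 4.54, 0.190 and 0.671 RPKM to 145, 164 and 187 RPKM (log2 change 6.22 ± 0.60, limma adjusted p = 0.000167). Eif3a, the core subunit on which the complex assembles, went from 8.81, 0.0834 and 1.44 RPKM to 204, 209 and 213 RPKM (6.15 ± 0.76, limma adjusted p = 0.000482). In NTC and NTM embryos the largest rises were instead in Eif3m, an essential core subunit, and Eif3e. Eif3m rose from 0.0327, 3.91 and 8.75 RPKM to 133, 108 and 171 RPKM in NTC (5.21 ± 0.76, limma adjusted p = 0.00123) and from 7.59, 0.449 and 0.125 RPKM to 181, 55.0 and 139 RPKM in NTM (5.55 ± 0.90, limma adjusted p = 0.00317). Eif3e rose to 392, 208 and 383 RPKM in NTC (4.88 ± 0.61, limma adjusted p = 0.000645) and to 334, 244 and 345 RPKM in NTM (5.65 ± 0.83, limma adjusted p = 0.00213).

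For eIF2 and its partners, both subunit genes measured rose in every embryo type. Eif2s1 reached 240 to 244 RPKM in in vivo 4-cell embryos, 83.1 to 102 RPKM in NTC and 40.6 to 61.1 RPKM in NTM, with log2 changes of 3.90 ± 0.52, 2.49 ± 0.38 and 3.83 ± 0.80 (limma adjusted p = 0.000666, 0.00148 and 0.00913). Eif2s2 changed by 2.66 ± 0.45, 2.41 ± 0.35 and 3.24 ± 0.58 (limma adjusted p = 0.00225, 0.00128 and 0.00463). From the 8-cell stage on, Eif2s2 made up 82.7% to 97.8% of the sum of both genes in embryos, against 17.7% to 52.4% in CC and 52.5% to 55.6% in MEF. Of the eIF2B genes, 4 of 5 rose in in vivo embryos and 2 of 5 in each kind of NT embryo. Of the eIF2 kinase genes none rose in any embryo type, and Eif2ak4 fell in each, by -2.74 ± 0.50, -2.45 ± 0.51 and -3.15 ± 0.60 (limma adjusted p = 0.00302, 0.00622 and 0.00604).

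Eif1a took a larger share of the eIF1A mRNA at the 4-cell than at the 2-cell stage. Of the summed RPKM of Eif1a and Eif1ax, Eif1a made up 1.15% to 61.3% at the 2-cell stage and 79.5% to 90.2% at the 4-cell stage in in vivo embryos, 24.9% to 41.3% and then 70.1% to 81.3% in NTC, and 0.692% to 45.8% and then 60.9% to 73.8% in NTM. The stages did not overlap within an embryo type, but the 2-cell shares varied widely, and the highest, in vivo, was above the lowest 4-cell share, in NTM. At the 1-cell stage the share was 0% to 2.29%. Eif1a rose to 129 to 187 RPKM in in vivo, 102 to 137 RPKM in NTC and 114 to 169 RPKM in NTM 4-cell embryos, with log2 changes of 5.12 ± 0.74, 2.95 ± 0.44 and 5.04 ± 0.99 (limma adjusted p = 0.00103, 0.00135 and 0.00703). Eif1ax was called in NTM only, with a rise of 1.76 ± 0.54 (limma adjusted p = 0.0412) whose call was kept in 3 of 12 alternatives, and the difference of its change between NTM and in vivo embryos was 2.40 ± 1.10 (limma adjusted p = 0.207). Eif1ad rose in each type, by 3.15 ± 0.71, 2.85 ± 0.50 and 3.04 ± 0.97 (limma adjusted p = 0.00817, 0.00283 and 0.0488), and the NTM call was kept in 5 of 12 alternatives. Eif3j2 rose in in vivo (2.50 ± 0.53, limma adjusted p = 0.00598) and NTC embryos (1.80 ± 0.40, limma adjusted p = 0.00868).

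Eif4e1b, Eif4e3, Eif4enif1 and Eif2ak4 were the genes that fell in in vivo and NTC embryos, and Eif4e1b, Eif4e3 and Eif2ak4 those that fell in NTM. Eif4e1b, the oocyte form of the cap-binding protein, which represses stored mRNAs, was at 25.5, 27.8 and 3.84 RPKM in in vivo 2-cell embryos and at 0.607, 0 and 0.734 RPKM at the 4-cell stage (log2 change -3.46 ± 0.72, limma adjusted p = 0.00576). It fell by 3.93 ± 0.46 in NTC and by 4.11 ± 0.63 in NTM on the log2 scale (limma adjusted p = 0.000483 and 0.00251). Eif4e3, a divergent member of the cap-binding family, fell from 267, 233 and 156 RPKM to 0.181, 1.07 and 1.88 RPKM in in vivo embryos (-6.80 ± 0.45, limma adjusted p = 4.65e-05), from 163, 167 and 117 RPKM to 11, 0.302 and 2.09 RPKM in NTC (-5.34 ± 0.74, limma adjusted p = 0.001) and from 176, 160 and 227 RPKM to 0.548, 0.203 and 2.39 RPKM in NTM (-6.66 ± 0.63, limma adjusted p = 0.000472). No library overlapped between the stages for either gene in any embryo type. Eif4enif1, for the protein 4E-T that binds eIF4E in repressed granules, fell in in vivo (-2.75 ± 0.47, limma adjusted p = 0.00217) and NTC embryos (-1.84 ± 0.44, limma adjusted p = 0.0115). It was at 13.5, 19.4 and 15.1 RPKM in NTM 4-cell embryos, below the 2-cell libraries at 89.4, 67.8 and 22.9 RPKM, without a call.

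The cap-binding family thus turned over in composition. Eif4e itself rose, by 2.38 ± 0.48 in in vivo embryos, by 1.38 ± 0.38 in NTC and by 1.82 ± 0.46 in NTM (limma adjusted p = 0.00479, 0.0222 and 0.02). Of the summed RPKM of Eif4e, Eif4e1b, Eif4e2 and Eif4e3, Eif4e3 made up 40.2% to 83.9% in the 1-cell and 2-cell libraries and 0.0273% to 2.88% in the 4-cell libraries. Eif4e made up 10.9% to 50.4% before and 94.2% to 96.0% after, in all 3 embryo types. Eif4ebp1 also rose, to 45.4 to 72.7 RPKM in in vivo, 108 to 226 RPKM in NTC and 270 to 365 RPKM in NTM 4-cell embryos. The summed level of 8 oocyte and maternal markers fell over the same interval, from 6856 to 17585 RPKM at the 2-cell stage to 78.2 to 670 RPKM at the 4-cell stage, and its part in the falls of these genes was not tested.

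**Figure D4:**
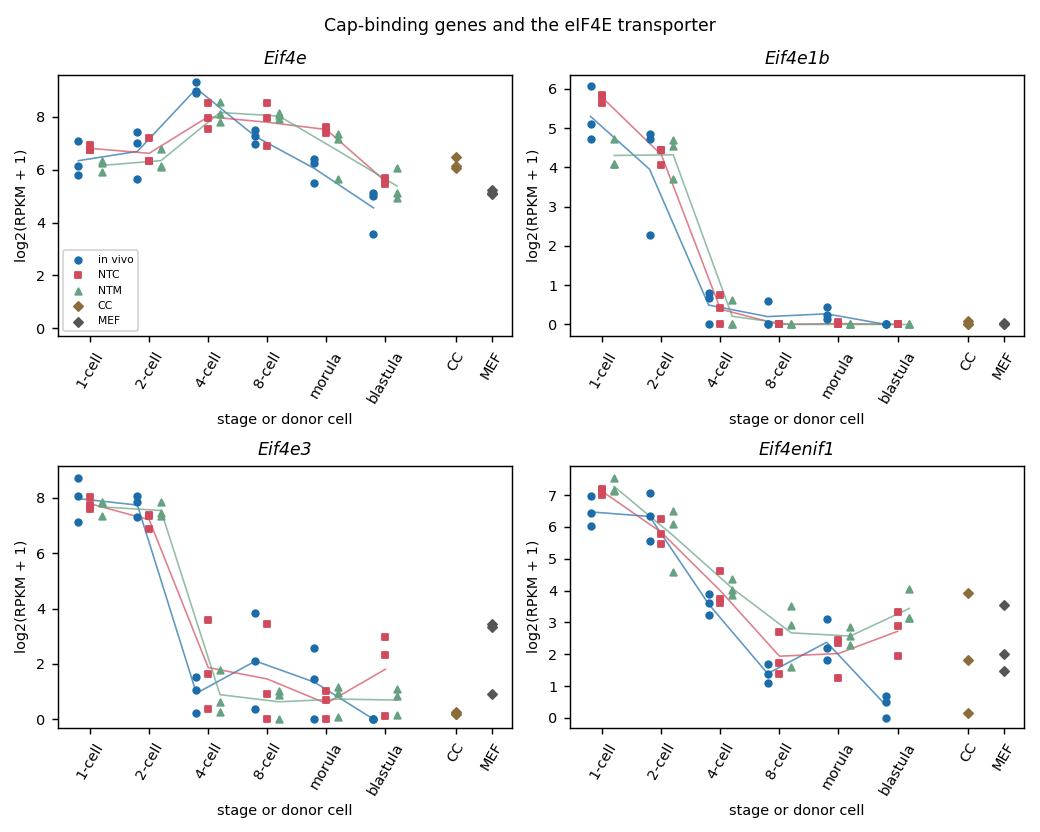
log2(RPKM + 1) of Eif4e, Eif4e1b, Eif4e3 and Eif4enif1 (vertical axes) in each library by stage and donor cell (horizontal axes), with points for libraries and lines through the mean of 3. Eif4e1b and Eif4e3 drop from the 2-cell to the 4-cell libraries in all 3 embryo types, with no library of the one stage within the range of the other, while Eif4e rises.

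At the 4-cell stage NT embryos differed most from in vivo embryos. NTC was lower in 15 factors and higher in 8 of 50 tested, where 27.8% of all genes were called, 20.4% lower and 7.40% higher. NTM was lower in 13 and higher in 3 of 49 tested, where 21.1% of all genes were called, 17.8% lower and 3.33% higher. The median factor difference was -0.61 and -0.42, beside -0.39 and -0.69 over all genes. The median-ratio scaling moved the median of all genes to -0.08 and -0.20, and gave 9 lower and 9 higher factors in NTC and 9 lower and 7 higher in NTM. Mitochondrial genes took 29.6% to 40.4% of the reads in NT 4-cell embryos and 5.68% to 8.87% in in vivo ones. With nuclear reads alone the counts were 9 lower and 9 higher in NTC, and 10 lower and 6 higher in NTM. One fit over all 20 groups gave 13 in NTC in place of 23. Without in vivo 4-cell replicate 1 or 3 the count was 15 and 14 in NTC, and without in vivo replicate 1, 2 or 3 it was 9 in NTM in each case.

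The genes furthest below in vivo embryos were near the floor of detection or a few RPKM in NT embryos. Eif3k, a small peripheral eIF3 subunit, was at 35.5, 33.6 and 32.4 RPKM in in vivo 4-cell embryos, at 0.949, 1.09 and 1.77 RPKM in NTC (log2 difference -3.96 ± 0.36, limma adjusted p = 0.000116) and at 0.223, 1.72 and 1.33 RPKM in NTM (-4.14 ± 0.51, limma adjusted p = 0.00169). Eif3d, the eIF3 subunit that can itself bind the cap of some mRNAs, was at 20, 29.6 and 26.1 RPKM in in vivo, 0.219, 0.663 and 0.562 RPKM in NTC (-4.14 ± 0.40, limma adjusted p = 0.00015) and 0.933, 0.804 and 0.909 RPKM in NTM 4-cell embryos (-3.79 ± 0.47, limma adjusted p = 0.0017). Eif2b4, the regulatory delta subunit of eIF2B, was at 40.1, 68.4 and 51.4 RPKM in in vivo and 2.26, 1.34 and 1.46 RPKM in NTM embryos (-4.32 ± 0.46, limma adjusted p = 0.00102). Both groups stood well apart in each of these genes. The means of Eif3k and Eif3d were under 5 RPKM in all other 19 groups, donor cells included, and those of Eif2b4 were between 0.817 and 3.71 RPKM there.

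Other factors were lower in NT embryos but well expressed. Eif5a was at 909, 876 and 906 RPKM in in vivo 4-cell embryos, at 132, 94.7 and 113 RPKM in NTC (-2.98 ± 0.20, limma adjusted p = 2.24e-05) and at 39.5, 50.3 and 172 RPKM in NTM (-3.66 ± 0.52, limma adjusted p = 0.00286). Eif4a3, the helicase of the exon junction complex, was at 329, 357 and 408 RPKM in in vivo, 46.5, 25.9 and 43.5 RPKM in NTC and 23.3, 69.1 and 99.2 RPKM in NTM embryos. Eif3h, for another eIF3 subunit, was at 329 to 421 RPKM in in vivo, 55.0 to 73.1 RPKM in NTC and 60.2 to 76.6 RPKM in NTM embryos. The in vivo libraries lay above all NT libraries in these 3 genes.

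Some factors were higher in NT embryos. Eif4g2 was at 109, 116 and 148 RPKM in in vivo 4-cell embryos, 468, 446 and 607 RPKM in NTC (2.02 ± 0.23, limma adjusted p = 0.000335) and 438, 734 and 406 RPKM in NTM (2.03 ± 0.32, limma adjusted p = 0.00445). Eif3b, the eIF3 subunit that holds the g and i subunits, was at 26.1, 42.9 and 28.6 RPKM in in vivo and 126, 134 and 156 RPKM in NTC embryos (2.08 ± 0.28, limma adjusted p = 0.000897). Eif4ebp1 was higher by 2.46 ± 0.32 in NTM (limma adjusted p = 0.00204). Eif1ad was higher in NTC embryos, at 135, 104 and 150 RPKM against 41.1, 37.7 and 44.6 RPKM (1.62 ± 0.26, limma adjusted p = 0.00201), as was Eif3j2 (1.02 ± 0.32, limma adjusted p = 0.0453), whose call was kept in 4 of 12 alternatives.

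The difference of the 2-cell to 4-cell change between NT and in vivo embryos was tested itself. A smaller or larger change here means a log2 change, taken with its sign, below or above that of in vivo embryos. In NTC embryos the change was smaller for 11 factors and larger for 1 of 51 tested, where 14.3% of all genes were called, 12% with a smaller and 2.38% with a larger change. In NTM embryos it was smaller for 9 and larger for 1 of 51 tested, where 9.91% of all genes were called, 8.05% smaller and 1.86% larger. Eif3k led both tests, with a difference in log2 change of -4.41 ± 0.52 in NTC (limma adjusted p = 0.000156) and -4.79 ± 0.82 in NTM (limma adjusted p = 0.00342). The in vivo 2-cell libraries behind these values held 1, 3 and 0 reads of Eif3k, so the fitted differences of this gene depend on the added 1. Next came Eif3d in NTC (-4.12 ± 0.53, limma adjusted p = 0.000289) and Eif5a in NTM (-4.48 ± 1.08, limma adjusted p = 0.0212). Eif4g2 was the factor whose change was larger in NT embryos, by 2.54 ± 0.50 in NTC and 3.01 ± 0.57 in NTM (limma adjusted p = 0.00517 and 0.00595). In in vivo embryos it was at 198, 187 and 400 RPKM at the 2-cell stage and at 109, 116 and 148 RPKM at the 4-cell stage, without a call (-0.99 ± 0.38, limma adjusted p = 0.0626), and it rose in NTC by 1.54 ± 0.31 and in NTM by 2.02 ± 0.44 (limma adjusted p = 0.00575 and 0.0106). Both tests used the same in vivo libraries.

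**Figure D5:**
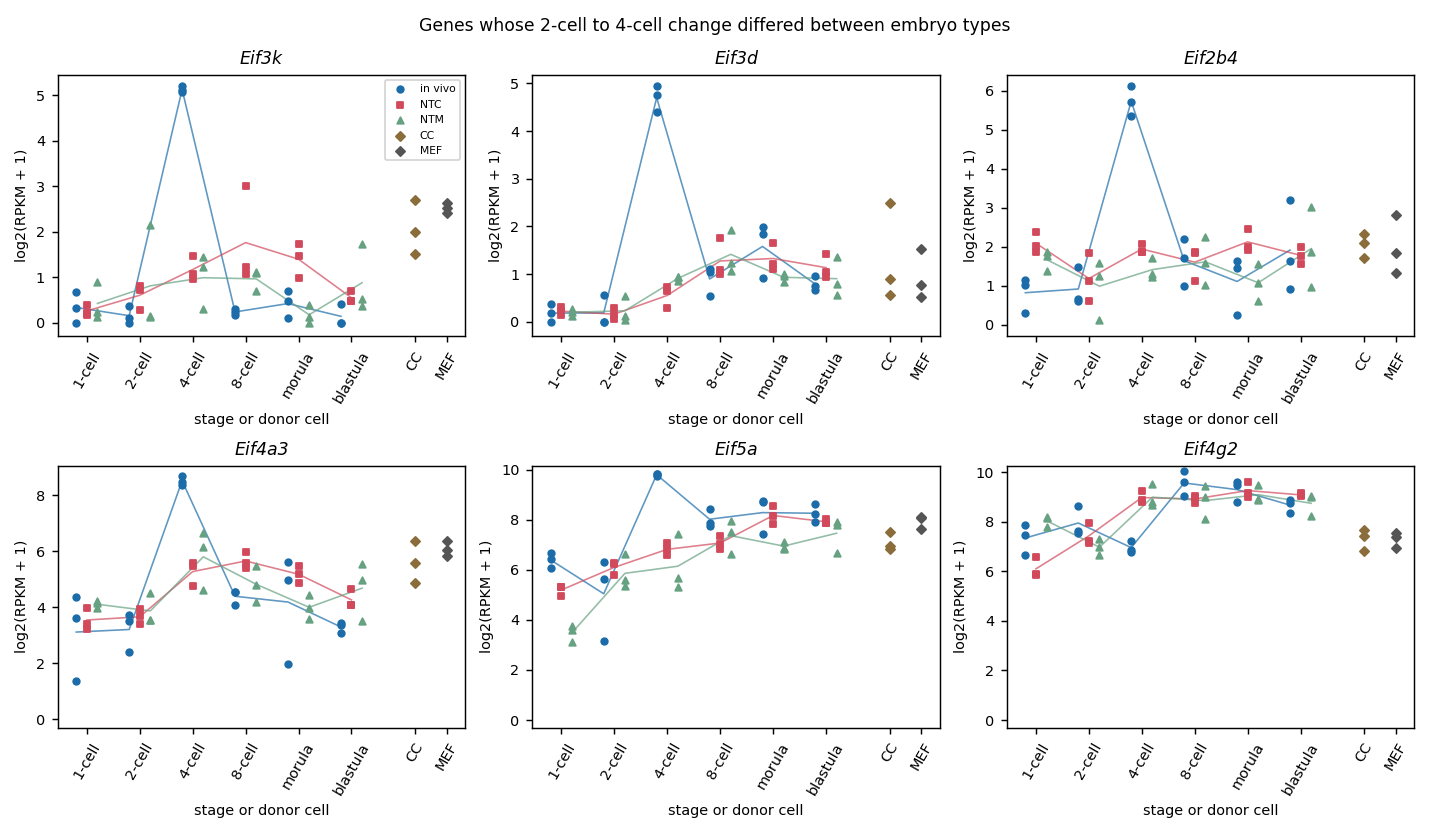
log2(RPKM + 1) of Eif3k, Eif3d, Eif2b4, Eif4a3, Eif5a and Eif4g2 (vertical axes) in each library by stage and donor cell (horizontal axes), with points for libraries and lines through the mean of 3. In vivo 4-cell libraries stand above every NT 4-cell library in all of these genes but Eif4g2, where they stand below them.

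The start regions of the genes that moved together in this way are shown to let their sequences be compared. RefSeq promoter windows of GRCm38.p6, of 250 bases before and 50 after the annotated start, matched 41 of the 52 genes. Of the factors whose change was smaller in both tests, Eif3h and Eif6 had no entry. For 6 of the other 7, all but Eif5a, the stretch from 80 bases before to 20 after the start is printed on the gene's strand, with capitals for the motif CCGGAAG or its complement CTTCCGG, which is bound by ETS family factors, and for a run of pyrimidines from the first base of the transcript.
Eif2b4, chr5:31193120-31193219, minus strand: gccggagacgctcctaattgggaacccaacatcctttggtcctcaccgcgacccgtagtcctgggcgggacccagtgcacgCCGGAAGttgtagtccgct
Eif3d, chr15:77970805-77970904, minus strand: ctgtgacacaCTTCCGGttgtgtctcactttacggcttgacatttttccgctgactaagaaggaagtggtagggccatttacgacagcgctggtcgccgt
Eif3f, chr7:108934335-108934434, plus strand: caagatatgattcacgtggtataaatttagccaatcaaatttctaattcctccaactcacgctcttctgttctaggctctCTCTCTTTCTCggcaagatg
Eif3k, chr7:28981869-28981968, minus strand: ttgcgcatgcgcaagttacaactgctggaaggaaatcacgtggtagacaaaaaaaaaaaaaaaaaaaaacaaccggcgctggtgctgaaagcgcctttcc
Eif3l, chr15:79075143-79075242, plus strand: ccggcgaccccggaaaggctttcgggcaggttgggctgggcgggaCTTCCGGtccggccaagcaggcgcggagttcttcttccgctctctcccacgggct
Eif4a3, chr11:119300024-119300123, minus strand: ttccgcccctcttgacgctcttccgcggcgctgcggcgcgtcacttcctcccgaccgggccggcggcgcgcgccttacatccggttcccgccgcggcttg

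These 6 starts share no single motif of those searched. CCGGAAG, on either strand, stood in the windows of Eif2b4, Eif3d and Eif3l, and in 14 of the 41 factor windows (34.1%) beside 9.12% of the windows of all 27025 genes. GGGCGG, the GC box, on either strand, stood in 30 of 41 (73.2%) beside 35.9%, and TATAAA on either strand in 3 of 41 (7.32%) beside 14.2%. A start of C followed by 4 or more pyrimidines, the form of the 5' terminal tract of mRNAs of the translation machinery, was found in Eif3f alone (2.44% of factors) beside 2.49% of all genes. A match describes the letters of a window and does not show a site in use.

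After the 4-cell stage calls were made mostly in in vivo embryos. There 20 factors fell and 4 rose from 4-cell to 8-cell of 49 tested, where 43.7% of all genes were called, 39.3% lower and 4.40% higher, with a median of -0.72 for factors and -1.05 for all genes. Under the median-ratio scaling, which moved the median of all genes to -0.34, 8 fell and 20 rose, and with nuclear reads alone 17 fell and 12 rose, so the balance of directions depends on the scaling. The mitochondrial share was 32.1% to 45.0% in in vivo 8-cell libraries. The largest falls were those of Eif3k, from 32.4 to 35.5 RPKM to 0.125 to 0.223 RPKM (log2 change -4.89 ± 0.34, limma adjusted p = 5.35e-05), and Eif4a3, from 329 to 408 RPKM to 15.8 to 22.5 RPKM (-4.12 ± 0.25, limma adjusted p = 3.2e-05). The in vivo 8-cell libraries held 2, 2 and 1 reads of Eif3k, so its fitted change depends on the added 1. Its 1157 reads in the 4-cell libraries against 5 reads make a ratio of 213 per read on genes, with an exact 95% interval of 91.0 to 657 that covers counting error only. The largest rises were those of Eif4a1, from 47.4, 100 and 85.9 RPKM to 599, 661 and 351 RPKM (2.79 ± 0.36, limma adjusted p = 0.000694), and Eif4g2, to 1054, 784 and 521 RPKM (2.61 ± 0.28, limma adjusted p = 0.000325). Eif1ax rose by 1.87 ± 0.50 (limma adjusted p = 0.0177). The direction of these 5 changes was the same under each scaling. NTC and NTM embryos had no called factor in this interval among 50 and 49 tested, where 0.0564% and 0.363% of all genes were called (0.187% lower in NTM), and 4 factors each at an unadjusted p under 0.05 (8% and 8.16%, beside 10.7% and 11.3% of all genes).

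Later stages held few differences. From the 8-cell stage to the morula limma called no factor in any embryo type (0.0116%, 0% and 0% of all genes in in vivo, NTC and NTM embryos), with 6, 3 and 6 factors at an unadjusted p under 0.05 (12.8%, 6.12% and 12.5%, beside 10.2%, 12.6% and 9.54% of all genes). From morula to blastula none was called in in vivo embryos (0.801% of all genes, 2 factors at an unadjusted p under 0.05, 4.35% beside 17.2% of all genes). In NTC embryos 3 fell of 49 tested, where 7.16% of all genes were called and 2.62% were lower. Eif4e went from 188, 195 and 167 RPKM to 46.2, 50 and 43.2 RPKM (log2 change -1.96 ± 0.26, limma adjusted p = 0.0065), Eif6, for the factor that keeps the ribosomal subunits apart, from 47.6, 36.4 and 44.5 RPKM to 15.5, 17.8 and 15.1 RPKM (-1.35 ± 0.31, limma adjusted p = 0.0332), and Eif2b3 by -1.32 ± 0.32 (limma adjusted p = 0.0413). This count was 1 without NTC morula replicate 1 or 3 or any NTC blastula library. In NTM embryos Eif5, for the factor that activates the GTPase of eIF2, fell from 638, 528 and 517 RPKM to 155, 272 and 219 RPKM (-1.41 ± 0.33, limma adjusted p = 0.0365) as the only factor called of 50 tested, where 4.22% of all genes were called, 3.73% higher and 0.499% lower. This call was lost without any library but NTM blastula replicate 3, without which the count was 3.

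Between embryo types of these stages only Eif4ebp1 was called. In NTM 8-cell embryos it was at 256, 530 and 300 RPKM against 95.7, 141 and 99.8 RPKM in in vivo ones (1.63 ± 0.33, limma adjusted p = 0.0372; 2.02% of all genes were called), without overlap, and the call was lost without any of these 6 libraries. No factor was called in NTC at the 8-cell stage (1.46% of all genes; 10 factors at an unadjusted p under 0.05), in either NT type at the morula stage (0.0321% and 0.168%; 5 and 3 factors) or at the blastula stage (9.46% and 0.746%; 9 and 5 factors). At that unadjusted p the share of factors was 20.4% at the 8-cell stage, beside 19.9% of all genes, 10.4% and 6.38% in morulae, beside 13.3% and 9.48%, and 19.1% and 10.4% in blastulae, beside 28.9% and 26.2%. Without in vivo morula replicate 1, 1 factor was called in NTM morulae, and at the blastula stage 1 or 2 were called without in vivo blastula replicate 1 or 2 or NTC blastula replicate 3 in NTC and without NTM blastula replicate 3 in NTM. NTM and NTC did not differ by limma in any factor from the 2-cell stage to the blastula, where 0% to 0.0507% of all genes were called, with 4, 1, 4, 18 and 0 factors at an unadjusted p under 0.05 at the 5 stages in order. These were 8.16%, 2%, 8.16%, 36.7% and 0% of factors, beside 6.65%, 5.88%, 13.1%, 16.7% and 3.09% of all genes.

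The factors did not move alone in the translation machinery. Over the 2-cell to 4-cell interval, 74 of 78 cytosolic ribosomal protein genes rose in in vivo embryos (median log2 change 5.85), 67 of 75 tested rose in NTC (2.81) and 67 of 77 in NTM (3.30), and none fell. Over all genes 31.4%, 16.4% and 12.1% rose and 20.8%, 20.1% and 14.3% fell, against which each count of this paragraph is to be read. Of the genes for elongation, 7 of 10 rose and 1 fell in in vivo embryos, led by Eef1g (8.23 ± 0.34, limma adjusted p = 1.77e-05), a subunit of the exchange factor of eEF1A, and by Dohh (4.81 ± 0.36, limma adjusted p = 6.62e-05), which completes the hypusine of eIF5A. In NTC 4 rose and 1 fell, and in NTM 4 of 9 tested rose. Of the release and recycling genes 3, 5 and 5 of 6 rose in in vivo, NTC and NTM embryos, with 1 fall in NTC. Of the poly(A) binding genes and partners of the cap complex 7 rose and 3 fell of 16 in in vivo embryos, 6 rose and 3 fell in NTC, and 6 rose and 1 fell in NTM. Those that fell included Pabpc1l, the poly(A) binding protein of oocytes, in each type (-3.89 ± 1.00, -2.76 ± 0.70 and -4.04 ± 0.78, limma adjusted p = 0.0143, 0.015 and 0.00669), and Cpeb1, which controls the poly(A) tails of stored mRNAs, in in vivo and NTC embryos (-4.12 ± 0.40 and -2.98 ± 0.66, limma adjusted p = 0.000168 and 0.00861). Of the genes of the mTORC1 and MAPK input to eIF4E 4 rose and 3 fell of 13 in in vivo embryos, 1 rose and 2 fell in NTC, and 2 rose and 2 fell in NTM. Of the stress response and eIF2 phosphatase genes 4 rose and 1 fell of 6 tested in in vivo embryos, 2 rose in NTC and 1 in NTM, Ppp1r15b (4.47 ± 0.69, limma adjusted p = 0.0026), which targets a phosphatase to eIF2.

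Compared at the 4-cell stage, ribosomal protein genes were lower in NTC in 52 of 78 and in NTM in 48 of 78, and higher in 3 and 2 (median log2 difference -2.57 and -2.09), where 20.4% and 17.8% of all genes were lower and 7.40% and 3.33% higher. Of the elongation genes 4 of 9 tested were lower and 1 higher in NTC, and 5 of 10 lower and 1 higher in NTM, with Eef1g at -5.30 ± 0.33 and -5.07 ± 0.49 (limma adjusted p = 1.37e-05 and 0.000647). Denr, a partner in the release of tRNA from the small subunit after termination, was lower in both, by -4.24 ± 0.36 and -4.22 ± 0.48 (limma adjusted p = 7.58e-05 and 0.00131), and Pabpc1, the main cytoplasmic poly(A) binding protein, was higher in both, by 2.15 ± 0.28 and 2.04 ± 0.41 (limma adjusted p = 0.000668 and 0.0124).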

How the data were processed

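The authors deposited RPKM values per Ensembl gene for 60 libraries of amplified cDNA from single embryos or donor cells, with ERCC controls added and no molecular identifiers. Their methods name TopHat and Bowtie2 for mapping, HTSeq for counting and a count model for pairs of groups. The submitters' processing notes name Bowtie 0.12.2 and another build, so the build is not certain and no gene coordinates from the files are given. Gene names came from GENCODE M21 (27013 of 27238 IDs matched; 53 genes met the rule and 52 are in the table, with Eif4ebp3 not analysed here). All sample columns were used.

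Values were tested as log2(RPKM + 1) with limma 3.58.1 in R 4.3.3 (trended empirical Bayes, only the groups compared in a fit), on genes with a mean of at least 0.5 RPKM in those libraries, with Benjamini-Hochberg adjustment over all genes, and called at an adjusted p under 0.05 and a log2 difference of at least 1. No count test was used. Reads behind a value, and so the depth, were worked out from RPKM steps. At GENCODE M21 lengths 73.1% to 78.1% of the small values of all genes in a library were whole reads. For each factor a length was sought that made its values whole reads within 0.05. Such a length was found for 51 of 52 genes, and for 34 it was the M21 length. Wholeness was the rule of this search, so it is no check of the read counts. Limits set by 3 reads cover counting error only, since amplified reads are not independent molecules. The labels say that embryos of each stage came from at least 3 independent experiments, but not which library came from which, and p-values measure the spread between these libraries. No 2 libraries were identical. The fits were tested on simulated data made for NTC against in vivo 4-cell embryos. Alternatives changed the pseudocount to 0.1, dropped the low-value filter, scaled libraries by median ratios, fitted all groups at once, added the replicate number as a block, or left out each library. Using nuclear reads only was an alternative added after seeing the data. The members and lists were chosen with earlier results of these data known. In each comparison the 2 largest called rises and falls and the study's Eif1ad, Eif3j2 and Eif1ax were to be named, with the highest and lowest gene of each role. Eif3h, Eif4a3, the eIF2 and eIF1A genes, the cap-binding genes and other examples beyond these were chosen after their values were seen.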

Additional observations from a re-analysis of the deposited data

Results flagged for a closer look

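The change from the 2-cell to the 4-cell stage differed between NT and in vivo embryos, by a test of the difference itself, for 12 factors in NTC and 10 in NTM. Values are differences of log2 changes, NT minus in vivo. In NTC embryos the change was smaller for Eif3k (-4.41), Eif3d (-4.12), Eif2b4 (-4.06), Eif5a (-4.04), Eif4a3 (-3.70), Eif3a (-3.38), Eif3l (-3.36), Eif3f (-3.34), Eif3h (-3.23), Eif6 (-3.12), Eif2b1 (-1.61), and larger for Eif4g2 (2.54). In NTM embryos it was smaller for Eif3k (-4.79), Eif5a (-4.48), Eif2b4 (-4.39), Eif3l (-4.31), Eif3d (-3.83), Eif3h (-3.74), Eif6 (-3.51), Eif4a3 (-3.38), Eif3f (-2.78), and larger for Eif4g2 (3.01). Over 18 alternatives the NTC call was kept in 5 for Eif3a, 8 for Eif3l and 8 for Eif2b1, and in all 18 for the other 9 genes. The NTM call was kept in 11 for Eif6, 14 for Eif4a3, 14 for Eif5a, 16 for Eif3f and 17 for Eif2b4, and in all 18 for the other 5. The in vivo 4-cell libraries, which both tests share, had 5.68% to 8.87% of their reads on mitochondrial genes against 29.6% to 40.4% in NT 4-cell libraries, and with nuclear reads alone 9 factors were called in NTC and 10 in NTM. With 3 libraries a group, single libraries were not tested for standing apart.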

How the results depend on the processing

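None of the 274 calls of single factors changed direction under any alternative. Counts of called factors that moved by over 1.5 times are given here. Cause of these moves was not tested. One fit over all 20 groups gave 4 factors from 1-cell to 2-cell in vivo, 14 in NTM, 2 from 4-cell to 8-cell in NTC, 1 from 8-cell to morula, 4 and 1 from morula to blastula in vivo and in NTC, and 7 for MEF against CC. Against in vivo embryos it gave 11 (NTC 1-cell), 4 and 10 (NTC and NTM 2-cell), 13 (NTC 4-cell), 3 and 0 (NTC and NTM 8-cell), and 6 and 4 (NTC and NTM blastula). It gave 3 for NTM against NTC after the 1-cell stage, and 2 and 4 for the difference of the 1-cell to 2-cell change in NTC and NTM. With no filter on low values the counts were 3 (NTM 1-cell to 2-cell), 1 and 0 (morula to blastula, NTC and NTM), 0 and 2 (NTC and NTM against in vivo 1-cell) and 0 (NTM 8-cell). Median-ratio scaling gave 7 (NTC morula to blastula), 1 (NTC 1-cell), 2 and 0 (NTC and NTM 8-cell) and 1 (NTC blastula against in vivo). A pseudocount of 0.1 gave 2 (NTM 1-cell), 1 (NTC 8-cell), and 3 and 1 (NTC and NTM blastula). Nuclear reads only gave 1 and 5 (morula to blastula in vivo and in NTC), 1 (NTC 8-cell), and 2 and 1 (NTC and NTM blastula). In 0 of 36 comparisons did the deviations of every same-numbered pair of libraries correlate above 0.1, and the main fits did not pair libraries by number. In NTM against NTC blastulae, same-numbered pairs correlated at 0.0727 to 0.119. Different-numbered pairs there were at -0.00857 or less, so a weak pairing is not excluded. The replicate block gave 1 (NTC morula to blastula), 0 and 2 (NTC and NTM against in vivo 1-cell), 1 (NTC 8-cell) and 2 (MEF against CC), and left the other counts within 1.5 times.

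Leaving out one library at a time gave 5 to 20 and 0 to 13 factors from 1-cell to 2-cell in NTC and NTM, 1 to 2 and 0 to 3 from morula to blastula, and 0 to 1 for MEF against CC. Against in vivo embryos it gave 0 to 15 and 1 to 8 (1-cell), 0 to 2 (NTC 2-cell), 14 to 22 and 9 to 18 (4-cell), 0 to 0 (NTM 8-cell), 0 to 1 (NTM morula) and 0 to 2 (each blastula), and for the difference of the 1-cell to 2-cell change 0 to 2 and 0 to 1. Where a group then held 2 libraries, the spread was pooled over the groups. Genes under 0.0314 to 0.283 RPKM, 3 reads on 2000 bases, cannot be told from 0.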
